A study of Mus musculus with 1152 samples.

Results

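Heat shock proteins and their cochaperones were examined as a group of 69 genes among the 23168 genes measured in lymphatic endothelial cells (LECs) that line the lymphatic plexus of the nasopharynx in aged mice. The members were all genes whose symbol begins with Hspa (Hsp70), Hspb (small heat shock proteins), Hsp90, Hspd, Hspe, Hsph, Dnaja, Dnajb or Dnajc (J-domain proteins). They comprised 13 Hspa, 8 Hspb, 3 Hsp90, 4 Dnaja, 12 Dnajb and 26 Dnajc genes, with 3 more from Hspd, Hspe and Hsph, and 8 pseudogene entries were left out. The Hspb count includes genes, such as Hspbp1, that met the rule by symbol alone and are not small heat shock proteins. The cells were sorted by flow cytometry as CD31+ PDPN+ from the nasopharynx of mice labelled aged and of strain c57bl/6. No treatment and no genetic alteration was given, and tissue of both sexes was pooled before digestion. The labels name no animal or sorting session for a cell, so all cells were treated as 1 pool with no replicate animals. Each cell was sequenced with Smart-seq3, a plate-based method that reads along the whole transcript. The labels number the cells, and the numbers were split here into 12 blocks of 96 consecutive cells, which the labels do not name. Of the numbered cells 56.9% were analysed (18 to 83 in each block), and no cells of younger mice were compared.

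Chaperones bind unfolded or partly folded proteins and pass them through cycles of ATP hydrolysis. J-domain proteins bring clients to Hsp70 and stimulate its ATPase, Hsp110 proteins such as Hsph1 exchange its nucleotide, Hsp90 acts on clients nearer to their final fold, and small heat shock proteins hold aggregating proteins without using ATP. Some members are made at all times, whereas others are induced when heat shock factor 1 (HSF1) binds heat shock elements, inverted repeats of the letters GAA, in their promoters. Endothelial cells raise the inducible set after heat and other stresses, and enzymatic isolation of tissue is known to induce it in many cell types. The comparison addressed here was between 8 stress-induced cytosolic members (Hspa1a, Hspa1b, Hsph1, Hspb1, Hsp90aa1, Dnajb1, Dnajb4 and Dnaja1) and 8 constitutive cytosolic members (Hspa8, Hsp90ab1, Hspa4, Hspa14, Dnaja2, Dnajb6, Dnajc5 and Dnajc7).

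Promoters are shown first because binding of HSF1 to these sequences is how the inducible members are known to be switched on. RefSeq sequences of the 250 bases before the start (build GRCm38.p6) were at hand for 56 of the 69 members, including 7 stress-induced and 5 constitutive ones. Each was searched for 2 facing units of a heat shock element, GAANNTTC or TTCNNGAA. These letters read the same on both strands. Below are 3 stress-induced promoters that lie outside annotated exons, in lower case, 5′ to 3′ on the strand of the gene and ending at its start, with the matches in capitals: Hspa1a at chr17:34972157-34972406 (minus strand), Hspb1 at chr5:135887669-135887918 (plus strand) and Dnajb4 at chr3:152193846-152194095 (minus strand).
Hspa1a: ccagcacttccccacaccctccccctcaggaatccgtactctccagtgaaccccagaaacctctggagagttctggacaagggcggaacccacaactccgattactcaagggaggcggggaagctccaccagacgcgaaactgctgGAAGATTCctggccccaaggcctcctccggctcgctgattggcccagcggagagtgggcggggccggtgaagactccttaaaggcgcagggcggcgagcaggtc
Hspb1: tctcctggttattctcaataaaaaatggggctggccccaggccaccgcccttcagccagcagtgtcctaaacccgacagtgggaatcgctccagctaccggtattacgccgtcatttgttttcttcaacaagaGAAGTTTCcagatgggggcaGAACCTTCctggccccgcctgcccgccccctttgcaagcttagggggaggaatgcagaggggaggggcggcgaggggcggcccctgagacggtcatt
Dnajb4: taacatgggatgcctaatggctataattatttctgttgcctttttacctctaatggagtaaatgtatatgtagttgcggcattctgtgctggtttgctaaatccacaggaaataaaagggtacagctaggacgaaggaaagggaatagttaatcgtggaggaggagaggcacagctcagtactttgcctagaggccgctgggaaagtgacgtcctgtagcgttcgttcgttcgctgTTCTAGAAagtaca
The match ended 96 bases before the start in Hspa1a, 89 bases in Hspb1 (whose promoter held a pair of matches) and 6 bases in Dnajb4. The promoter of Hspa1b had a match at the same distance as Hspa1a, and the promoters of these neighbouring genes differed at 3 of 250 bases. Several genes had more than 1 start, and a gene was counted where any of its starts had a match. By gene, matches were found in 6 of 7 stress-induced members, with TTCTCGAA in Hsph1 and GAAAATTC in Dnaja1, and none in Dnajb1. Dnaja1 had its match at 1 of 3 starts, where most of the 250 bases before the start lie in annotated exons, and Dnajb4 at 1 of 2 starts, the one printed. Among the constitutive members 1 of 5 had a match, Dnajb6. The share over all 12746 genes with a promoter sequence was 12.5%. The constitutive Hspa8, Hsp90ab1 and Dnajc5 and the stress-induced Hsp90aa1 had no promoter sequence at hand. They were not searched, so these counts do not cover them. By start, matches were found at 7 of 12 stress-induced and 2 of 7 constitutive starts, against 10.5% of all starts. Both constitutive starts were those of Dnajb6 and held the same bases. The starts of Hsph1 also shared their match, so counts by start include the same site repeatedly. The longer run of 3 units, GAANNTTCNNGAA or TTCNNGAANNTTC on either strand, includes a match of 2 units and occurred in 0.455% of all promoters. It occurred in 3 members, the constitutive Dnajb6 with GAATCTTCCGGAA and the mitochondrial pair Hspd1 and Hspe1. The promoters of that pair face each other on chromosome 1 and share the 18-base run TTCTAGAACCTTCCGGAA (chr1:55088059-55088076, plus strand), 71 bases before the start of Hspe1. At each start with a 3-unit run, in Dnajb6 as in this pair, all 250 bases before the start lie in annotated exons of some gene. Letters in a promoter are a description and not a measurement of binding.

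Read depth varied widely between cells, from 7046 to 10727631 reads with a median of 148202, and 2006 to 7679 genes were detected per cell. All 8 LEC identity genes were found in most cells, from 87.7% for Ccl21a to 100% for Flt4 and Mmrn1. Genes of blood cells were found in 0.457 to 9.60% of cells and mural genes in 0.457 to 3.51%. Of 5 fibroblast genes, Dcn was found in 30.03% of cells and the other genes in few. Of 6 blood endothelial genes, 4 were found in at least 30% of cells, with Emcn at 96.2% and Flt1 at 2.44%. The stress-induced level had a Spearman rho of 0.034 with the summed blood-cell genes and -0.056 with the summed fibroblast genes across cells. Reads of both Xist and a Y-linked gene were found in 4 cells, and results without these are given with the processing alternatives. With the cells treated as 1 pool there was no test between samples. Correlations across cells below are descriptions of all the cells analysed, which are not replicates and differ in depth.

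Of the 69 members, 41 were detected in at least 30% of cells, beside 5279 of all 23168 genes. Dnajc6, which uncoats clathrin vesicles in neurons, was detected in 0 cells, and at this number of cells a share of 0.457% could have gone unseen. A cell had reads of 9 to 48 members, with a median of 28, and members together took 13.4 to 493.55 of each 10000 reads, with a median of 122.75. Levels between genes were compared as reads per 10000 and kilobase of exon, averaged over cells. Hspa8, the constitutive cytosolic Hsp70 (chr9:40800984-40810087), was the highest member at 12.9, followed by Hsp90ab1, the constitutive cytosolic Hsp90, at 6.74. Hspb1 followed at 3.07, Hspa5 of the endoplasmic reticulum at 1.85, Dnajb1 at 1.57 and Hsp90aa1 at 1.12.

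**Figure D1:**
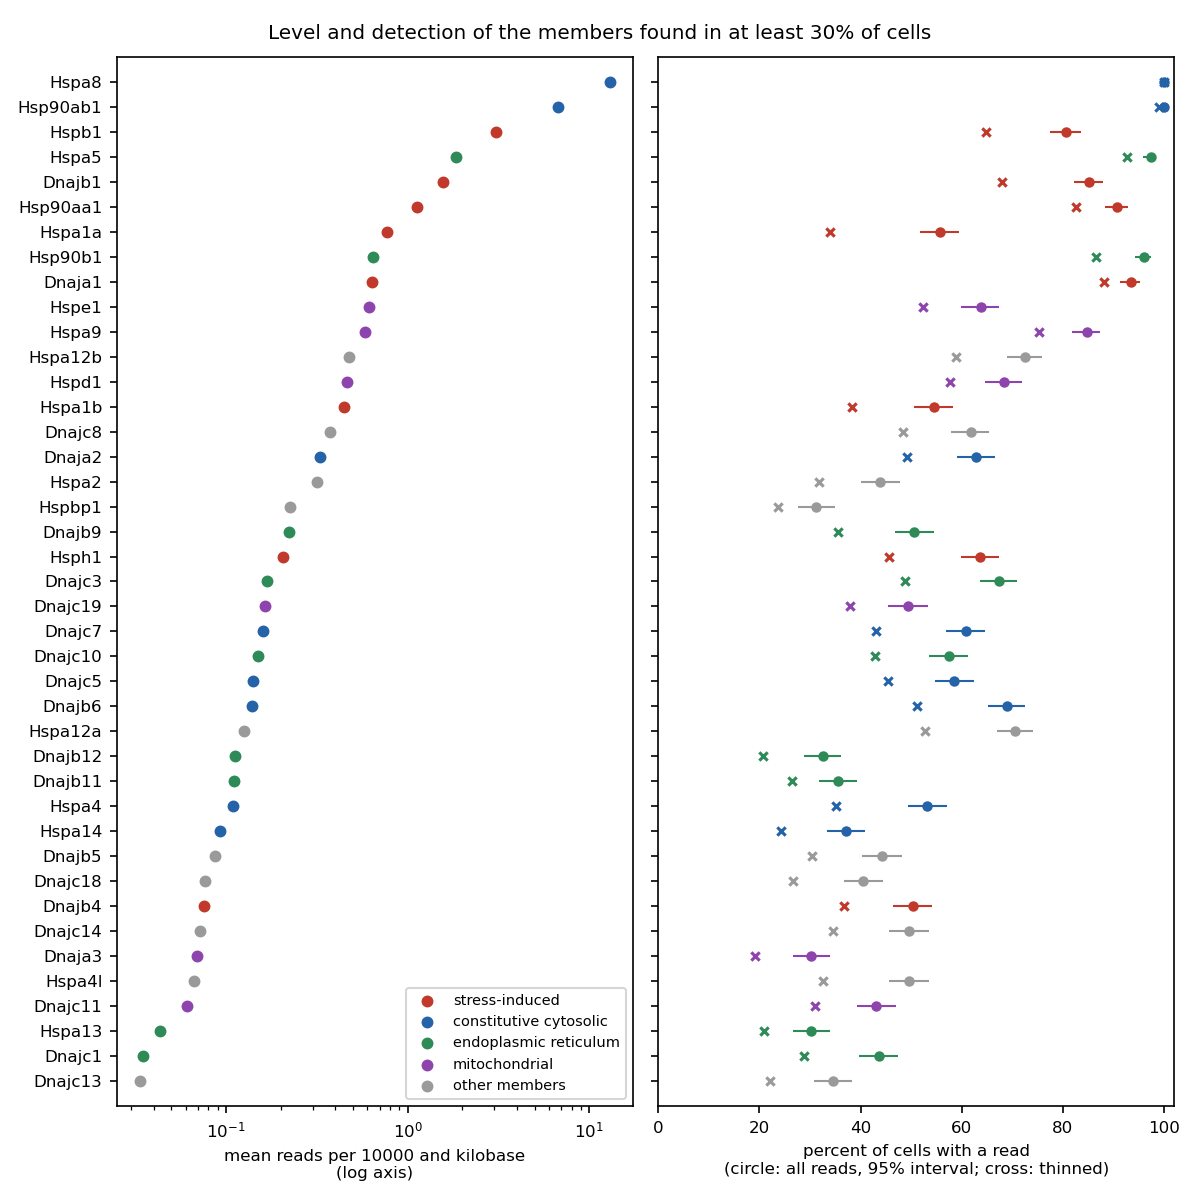
Mean level per 10000 reads and kilobase of exon on a log axis (left) and percent of cells with a read (right) for the 41 members detected in at least 30% of cells, coloured by list. Circles use all reads with 95% exact binomial intervals (counting error alone) and crosses use cells thinned to 20000 reads. Hspa8 and Hsp90ab1 stand highest on both scales, and the other constitutive members range on the left from Dnaja2 at 0.328 to Hspa14 at 0.0924.

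The constitutive list was carried by these 2 genes. Hspa8 was detected in 100% of cells, with 0.331 reads per 10000 in the lowest cell, 45.7 in the median cell and 262.04 in the highest. Hsp90ab1 was also detected in 100% of cells, at 0.0893, 18.9 and 204.28 reads per 10000. The other 6 constitutive members were found in fewer cells. Dnajb6, which suppresses protein aggregation, was found in 68.9% of cells, Dnaja2, a J-domain partner of Hspa8, in 62.8%, and Dnajc7, which bridges Hsp70 and Hsp90, in 60.8%. Dnajc5, a J-domain protein of secretory vesicles, was found in 58.5%, Hspa4 of the Hsp110 class in 53.2% and the ribosome-associated Hspa14 in 37.04%. As a result, the median level per kilobase of the constitutive members, 0.151, was 0.215 of that of the stress-induced members, 0.701. The sums over the lists ran the other way, 20.6 against 7.89, a ratio of 2.61, so which list is higher depends on whether its typical member or its total is taken. The ratio of medians was 0.505 when the median length of protein-coding transcripts replaced the union of exons.

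All 8 stress-induced members were detected in more than 50% of cells, a threshold for which no share over all genes was at hand. Their median share was 72.1% against 61.8% for the constitutive members. At an equal depth of 20000 reads in the 86.6% of cells that reached it, these medians were 55.2% and 47.3%. Dnaja1, a J-domain partner of Hsp70, was found in 93.5% of cells, with 0 reads per 10000 in the lowest cell, 3.96 in the median cell and 47.4 in the highest. Hsp90aa1, the inducible Hsp90, was found in 90.7% of cells at 0, 2.94 and 50.1 reads per 10000. Dnajb1, the classical inducible Hsp40, was found in 85.2% of cells at 0, 2.02 and 149.49 reads per 10000. These 3 genes therefore had reads in most cells while their highest cells lay far above the median.

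Hspb1, the small heat shock protein Hsp27 in human (chr5:135887919-135889563), was found in 80.6% of cells at 0, 1.15 and 66.9 reads per 10000. Hsph1 was found in 63.6% of cells at 0, 0.194 and 29.9 reads per 10000. The inducible Hsp70 genes had medians close to 0. Hspa1a (chr17:34969190-34972156) was found in 55.6% of cells at 0, 0.0173 and 81.2 reads per 10000, and Hspa1b (chr17:34956436-34959238) in 54.4% at 0, 0.02503 and 38.7. Their coding regions are near copies, and 52.7% of the 75-base windows of the Hspa1a transcripts occur unchanged in Hspa1b, so how reads were divided between them is uncertain. In addition, 19% of the exon bases of Hspa1a overlap Gm20481 on the opposite strand. Dnajb4, another J-domain partner of Hsp70, was the lowest of the list, found in 50.3% of cells at 0, 0.00675 and 7.68 reads per 10000.

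Per cell, a median of 6 of the 8 stress-induced members was detected, with 0 in the lowest cell and all 8 in 15.7% of cells. Summed over the list, a cell had 0 to 228.03 stress-induced reads per 10000, with a median of 17.4, a 10th percentile of 4.05 and a 90th percentile of 49. The constitutive sum spanned 3.53 to 299.67 with a median of 68.7, and its 10th and 90th percentiles were 33.7 and 140. Stress-induced members made up a median of 19.1% of the reads of both lists, from 0 to 85.9% across cells, and Hspa8 alone made up a median of 51.5%. The middle of the distribution was therefore wider in proportion for the inducible than for the constitutive sum.

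The 2 lists also differed in how far each gene varied beyond what its mean predicts. The variance of the log values was compared with a smooth trend over 5279 genes detected in at least 30% of cells, and the top 10% held 8 of the 41 members, where 10% of all genes lie by definition. They were Dnajb1, Hspa1a, Hspb1, Hspa5, Dnaja1, Hsp90aa1, Hspa1b and Hsph1, so 7 were stress-induced members and 0 were constitutive. Dnajb1 ranked 60 and Hspa1a ranked 73 of 5279. Dnajb4 was the stress-induced member outside the top 10%, at rank 3450. Hspa8 lay above the trend by 0.066 and Hsp90ab1 below it, at -0.024, against 0.531 for Dnajb1 (variance in ln units squared).

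**Figure D2:**
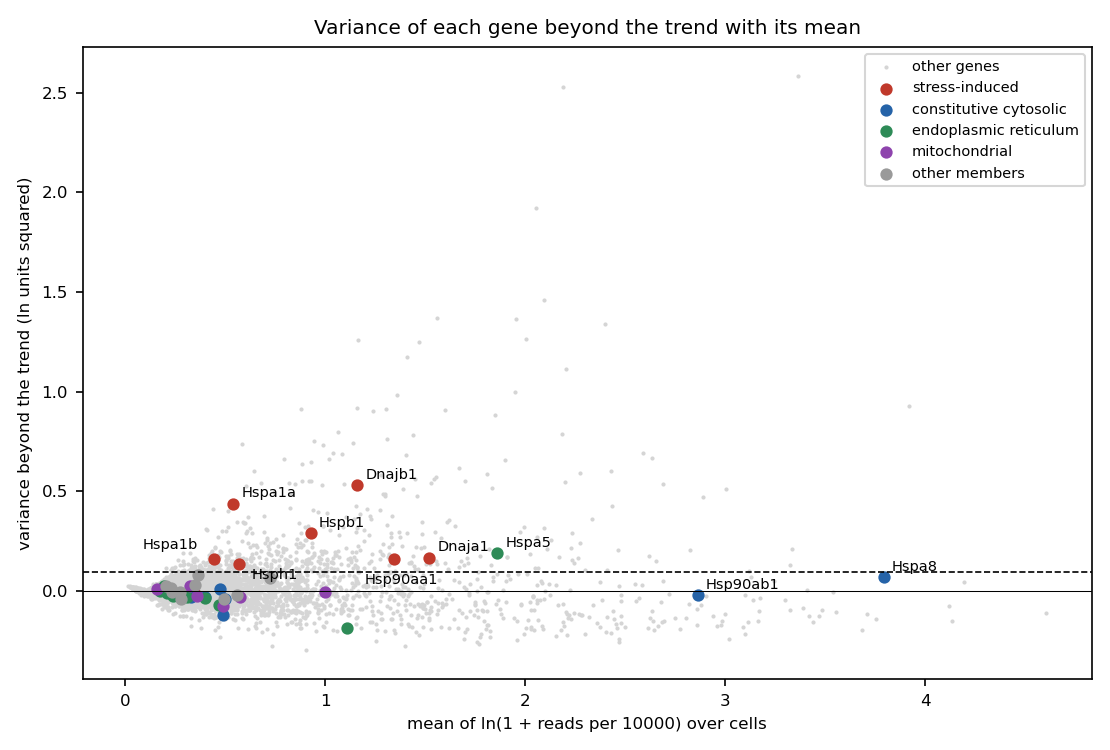
Variance of each gene beyond the smooth trend with its mean (ln units squared) against its mean ln(1 + reads per 10000), over 5279 genes. The dashed line is the top 10% boundary, and 7 stress-induced members and Hspa5 lie above it.

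Levels of the stress-induced members went together across cells. All 28 pairs within the list had a rho above 0, with a median of 0.225 and a range from 0.067 to 0.457. A rho above 0 was also usual in the other lists. It was found in 24 of 28 constitutive, 42 of 45 endoplasmic reticulum and 25 of 28 mitochondrial pairs, so the sign alone does not set the list apart. The highest pairs were Dnajb1 with Hsp90aa1 at 0.457, Hspa1a with Hspa1b at 0.402, a pair whose reads cannot be fully separated, and Dnaja1 with Hsp90aa1 at 0.362. The lowest pair was Hspa1a with Hspb1, at 0.067. The median over the 28 constitutive pairs was 0.044, and 0.035 without Hspa8 and Hsp90ab1. Over all 820 pairs of the 41 members the median was 0.041, and 11 pairs had a rho of at least 0.3. Each of these 11 pairs included a stress-induced gene or Hspa8. No share over all gene pairs was at hand to set beside this count.

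Hspa8, although on the constitutive list, sided with the stress-induced members. Its rho was 0.515 with Hsp90aa1, 0.476 with Dnaja1 and 0.418 with Dnajb1, and its median over the 8 stress-induced members was 0.303. Hsp90ab1 had a median of 0.188 with them. The remaining 6 constitutive members had a median of 0.042 over 48 pairs with stress-induced genes. The level of Hspa8 in a cell had a rho of 0.629 with the stress-induced sum, whereas the constitutive sum without Hspa8 had 0.288. Among the 5271 detected genes outside the stress-induced list, Hspa8 ranked 2 by this measure.

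**Figure D3:**
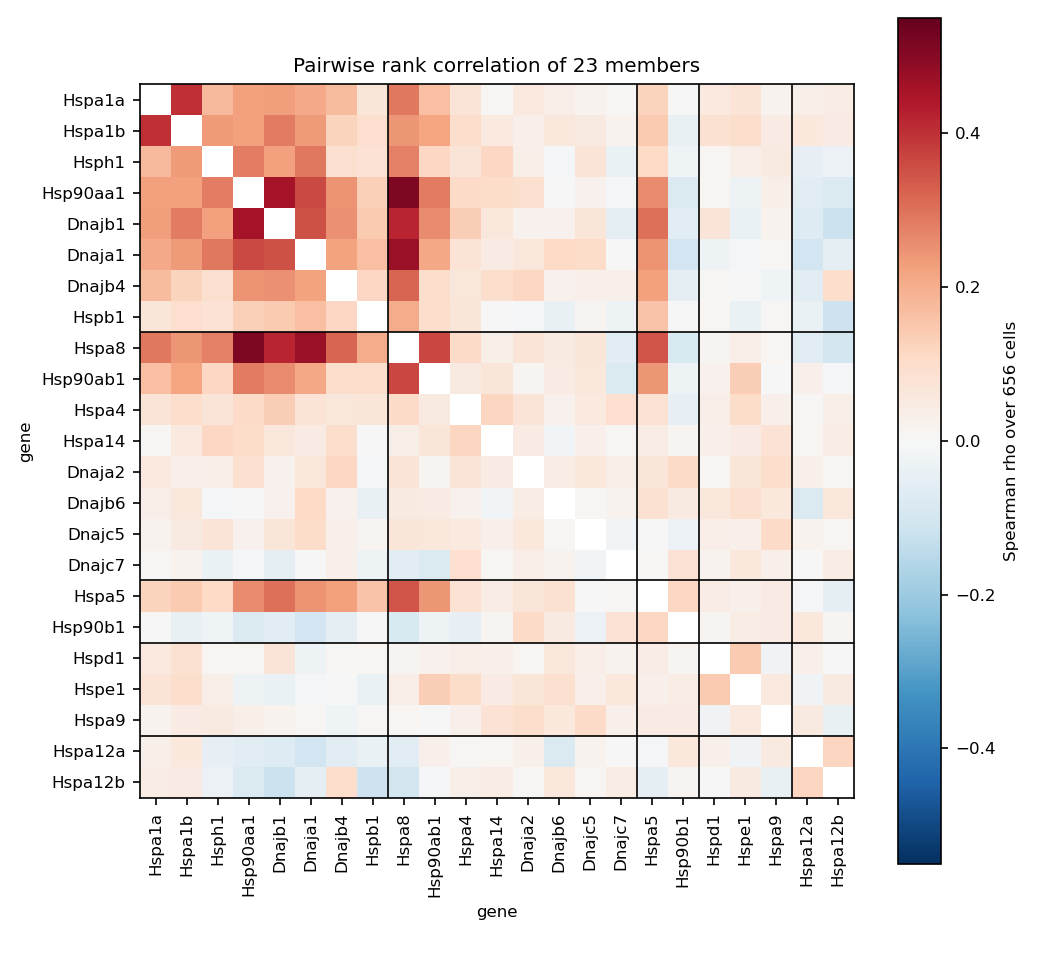
Spearman rho over all cells for each pair of 23 members, with black lines between the stress-induced, constitutive, endoplasmic reticulum, mitochondrial and Hspa12 genes. The upper left block is red throughout (0.067 to 0.457), and the row of Hspa8 continues it, while most constitutive and mitochondrial cells of the grid are near white.

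Against the background, 1.63% of the 5271 genes outside the list had a rho of at least 0.3 with the stress-induced sum. Among the 33 members outside the list these were 4, namely Hspa8, Hspa5 at 0.345, Dnajb9 at 0.335 and Hsp90ab1 at 0.303. Within the list, 6 of 8 members reached 0.3 with the sum of the others, from 0.535 for Dnajb1 and 0.531 for Hsp90aa1 to 0.312 for Hspa1a. Dnajb4 had 0.298 and Hspb1 had 0.205.

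The genes outside the group that followed the stress-induced sum most closely were immediate-early genes, which are transcribed within minutes of a stimulus without new protein synthesis. Junb had the highest rho at 0.655, followed by Fosb at 0.623, Atf3 at 0.611, Egr1 at 0.604, Jun at 0.597 and Socs3 at 0.588. Ppp1r15a, which restarts translation after stress, had 0.580, Zfp36 had 0.576 and Fos had 0.564. Of the genes named here, 8 belonged to a list of 19 immediate-early genes, and 18 of the 19 had a rho of at least 0.3.

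Summed over those 19 genes, the immediate-early level spanned 0.873 to 1291.7 reads per 10000 with a median of 224.23. Its rho with the stress-induced sum was 0.677 over all cells. The constitutive sum followed it to a like degree, at 0.654, as did Hspa8 alone at 0.680, whereas the constitutive sum without Hspa8 had 0.243. The value for the stress-induced sum was 0.648 to 0.680 when each stress-induced gene in turn was left out of the sum, and 0.690 in cells thinned to 20000 reads. Within the 12 blocks of 96 consecutive cell numbers, which the labels do not tie to plates, it was 0.418 to 0.788. The rho of the stress-induced sum was 0.014 with total reads, 0.133 with the number of detected genes and -0.133 with the mitochondrial share. With the summed LEC identity genes it was -0.318, values that are all shares of the same cell's reads. The tissue was digested with warm enzymes before sorting, and the part of that step in the shared level of both gene sets was not tested.

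**Figure D4:**
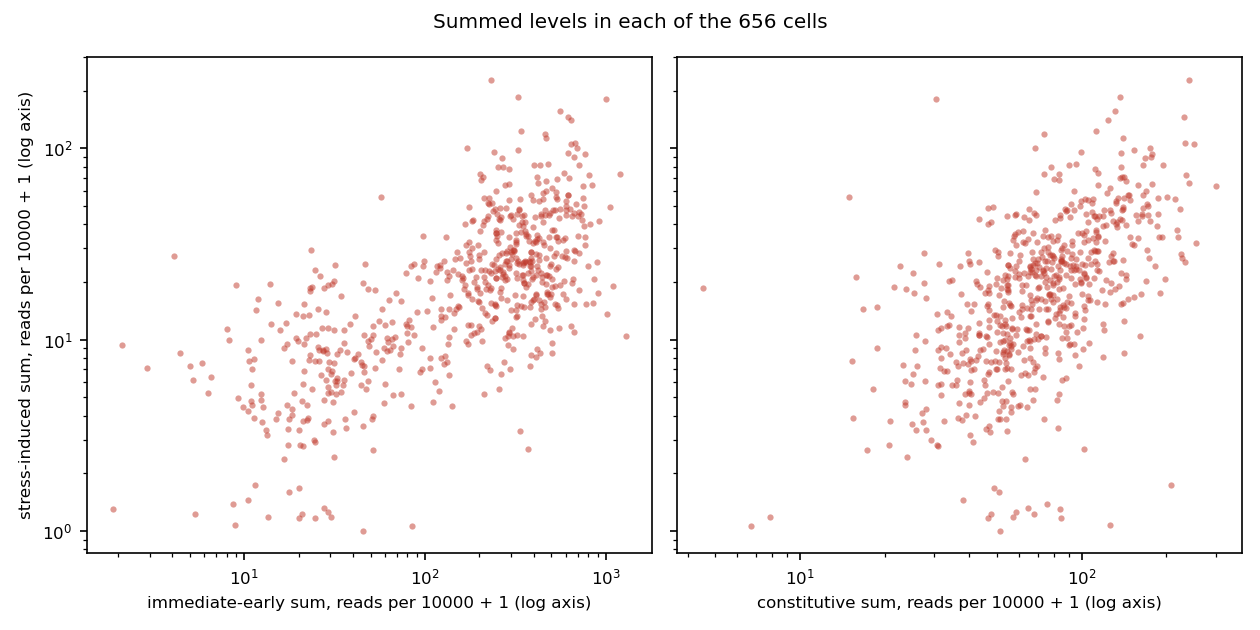
Stress-induced sum of each cell analysed against its immediate-early sum (left) and its constitutive sum (right), in reads per 10000 plus 1 on log axes. The cloud rises from lower left to upper right in both panels (rho 0.677 and 0.616), with wide scatter at any given level.

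Most members of the heat shock pathway that are not heat shock proteins had a rho below 0.3 with the stress-induced sum. So did most genes, as 1.63% of the 5271 detected genes outside the stress-induced list reached 0.3. Hsf1, the main transcription factor of the response, was found in 55.8% of cells and had a rho of -0.033 with the sum, which describes its RNA and not its activity. Hsf2 was found in 26.1% of cells, Hsf4 in 12.2% and Hsf5 in 0 cells. Of 9 other genes listed as HSF1 targets, Ubb had the highest rho at 0.459 and was the only one of the list at or above 0.3, and Bag3, a cochaperone that hands Hsp70 clients to autophagy, had 0.220. Of 18 other cochaperones, 0 reached 0.3, from -0.061 for Bag4 to 0.220 for Bag3. The 8 subunits of the cytosolic chaperonin TRiC, which folds actin and tubulin, had values from -0.028 to 0.057. In the oxidative stress list, 0 of 7 genes reached 0.3, with Txnrd1 at 0.277 and the haem oxygenase gene Hmox1 at 0.276.

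In the endoplasmic reticulum, 9 of 10 members were detected in at least 30% of cells, beside 5279 of all 23168 genes. Hspa5 (BiP), the Hsp70 of that compartment, was found in 97.4% of cells, with 0 reads per 10000 in the lowest cell, 6.45 in the median cell and 40.6 in the highest. Hsp90b1 (Grp94), its Hsp90, was found in 96.04% of cells at 0, 2.08 and 18.2 reads per 10000. These partners had a rho of 0.112 with each other. Hspa5 had 0.345 with the stress-induced sum, whereas Hsp90b1 had -0.103. The closest compartment partner of Hspa5 was Dnajb9 (ERdj4), at 0.282, and the other 8 members had -0.005 to 0.112 with it.

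Of 19 other genes of the unfolded protein response, 1 had a rho of at least 0.3 with the stress-induced sum, the translation-stress factor Atf4 at 0.421. The share over all detected genes outside the stress-induced list was 1.63%. Ddit3 (CHOP), a target of Atf4, had 0.245, the lectin chaperone Calr had -0.012, and Sel1l of the degradation pathway had -0.103. Hspa5 itself had a rho of 0.306 with Atf4 and 0.201 with Calr.

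Mitochondrial members had a median rho of 0.011 with the stress-induced sum, beside 0.014 for endoplasmic reticulum and 0.070 for constitutive members. Hspa9 (mortalin), the Hsp70 that drives protein import, was found in 84.8% of cells at 0, 1.88 and 18.4 reads per 10000. Hspd1 (Hsp60) was found in 68.3% of cells at 0, 0.600 and 39.1, and its partner Hspe1 (Hsp10) in 63.7% at 0, 0.429 and 7.60. The rho of the 8 mitochondrial members with the stress-induced sum lay between -0.071 for Dnajc19, of the import motor, and 0.038 for Hspd1. Hspd1 and Hspe1, whose shared run of 3-unit letters is printed above, had 0.038 and -0.027.

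Hspa12a and Hspa12b are distant Hsp70 relatives, and Hspa12b is known as an endothelial gene. Hspa12b was found in 72.6% of cells at 0, 0.817 and 16.5 reads per 10000, and Hspa12a in 70.6% at 0, 0.394 and 12.9. Both had a rho slightly below 0 with the stress-induced sum, at -0.123 and -0.098.

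The 10 members listed as restricted to testis, muscle or nerve were found in 0 to 43.9% of cells with a median of 3.13%. Hspa2, an Hsp70 needed for meiosis in the testis, was the highest at 43.9% and had a rho of 0.241 with the stress-induced sum. A further 5 genes of that list had no entry among the 23168 genes, so the range and median leave them out. The remaining 23 members included the spliceosomal Dnajc8 in 61.7% of cells, the Hsp70 nucleotide exchange factor Hspbp1 in 31.3%, Dnajc24, which acts in diphthamide synthesis, in 26.4%, the histone chaperone Dnajc9 in 24.4% and Dnajc4 in 22.4%. Of the 5 genes named here, Dnajc8 had the highest rho with the stress-induced sum, at 0.062. The highest of the 23, a member outside the 5, had 0.140.

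Cells were clustered with steps modelled on the methods of the study, but with the members left out of the clustering genes and with total reads, mitochondrial share, immediate-early and ribosomal scores regressed out. The immediate-early list stood in for the dissociation-induced genes that the study scored. This gave 6 clusters with 5.49 to 25.8% of the cells each, called here by number. The mean stress-induced sum was 20.5 reads per 10000 in cluster 4 and 26.2 in cluster 3, with the other clusters between them, a fold of 1.28. The mean immediate-early sum was 222.23 to 297.8. Of the 41 members, 9 had at least a 2-fold range of cluster means, against 31.2% of all 5279 genes. They were Hspa4l, Hspa12a, Hspb1, Dnajc14, Dnajb5, Hspa4, Hspa1b, Dnajc18 and Dnajb1, and Hspa4l, Dnajc14, Dnajb5 and Dnajc18 are named after their values were seen.

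Hspb1 averaged 4.11 reads per 10000 in cluster 2, led by Ahsg, Spp1 and Apoe, and 1.40 in cluster 5, led by Fxyd2, Gdf15 and Gdf10. Dnajb1 ran the other way between these clusters, at 4.88 and 7.25, and was lowest in cluster 4 at 3.44. Hspa12a averaged 1.76 in cluster 6, led by the interferon-stimulated genes Rsad2, Oasl1 and Gbp4, and 0.552 in cluster 5. Hspa4l, an Hsp110 relative, averaged 2.45 in cluster 6 and 0.428 in cluster 2, a fold of 4.82 that was 3.33 without the highest cell of each cluster. Without that cell the fold of Dnajb1 was 1.81.

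The values changed without the regression. The lowest resolution with at least 5 clusters was then 0.5 in place of 0.8 and gave 5 clusters, and the mean stress-induced sum ranged from 8.75 reads per 10000 in a cluster with 33.5% of the cells to 38.03 in a cluster with 13.6%, a fold of 4.31. The same clusters had mean immediate-early sums of 55.1 and 387.38. All 8 stress-induced members then had at least a 2-fold range of cluster means, from 3.02 for Dnajb4 to 10.3 for Hspa1a, among 16 of 41 members against 28.8% of all genes. The constitutive members with such a range were Hspa8 at 2.80 and Hspa4 at 2.22. Without regression at the unchanged resolution of 0.8, an alternative added after seeing the data, 6 clusters had a fold of 4.08 in the stress-induced sum, and all 8 stress-induced members again had at least a 2-fold range, among 17 of 41 members against 34.1% of all genes. Immediate-early genes took part in forming these clusters, so the cluster means are a description of cells grouped partly by genes that follow the same sum.

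Across the 12 blocks, which held 18 to 83 cells each, the median stress-induced sum was 13.8 to 25.1 reads per 10000 and the median stress-induced share of the reads of both lists was 16.7 to 23.9%. The highest median sum was in block 8, which had 18 cells. Leaving out each block in turn gave an overall share of 18.8 to 19.7% and a rho with the immediate-early sum of 0.665 to 0.686.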

How the data were processed

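The deposited values were natural-log values, ln(1 + reads per 10000) for each gene and cell, made by the authors with STAR and featureCounts on mm10 and Seurat 4.1.0; how reads matching several genes were counted was not given in the sources used here, and the methods name a base of 2, whereas exp(value) - 1 summed to 10000 in every cell. Values are not scaled for length, and PCR copies were not told apart; Smart-seq3 also yields reads tied to the 5′ end, which division by length does not allow for. The members and all gene lists were chosen with earlier results of these data known. Named were all genes of the main lists, the 10 highest of the other members, those in 0 cells, and the 10 non-members with the highest rho with the stress-induced sum, together with factors and pathway examples; 1 gene that the rule names is not reported here.

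Reads were recovered by taking the smallest value above 0 of a cell as 1 read, which gave whole reads for 100% of values within 0.01. Depth was 7046 to 10727631 reads per cell, and 88 cells were too shallow to thin to 20000 reads. Exon lengths came from GENCODE M21 (GRCm38) and promoters from RefSeq. Detection intervals are exact (Clopper-Pearson, 95%) and cover counting error only. Rank correlations are Spearman's, and folds between clusters had 0.1 added to both means. Clustering used Seurat 5.3.0 with R 4.3.3, 2000 variable genes, 15 principal components and the lowest resolution with at least 5 clusters (0.8); doublets were not called. Other steps used Python 3.11, numpy 2.4.6, scipy 1.17.1 and statsmodels 0.14.6 (lowess fraction 0.3). The code was tested on simulated data.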

Additional observations from a re-analysis of the deposited data

How the results depend on the processing

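No paired analysis was possible because the cells form 1 group with no replicate samples. Median detection depended on depth and threshold. With a value above 1 required it was 33.9% for stress-induced and 18.4% for constitutive members, in cells thinned to 20000 reads 55.2% and 47.3%, and with the 25% of cells lowest in detected genes removed 76.8% and 67.5%; the stress-induced median was the higher in each. The ratio of constitutive to stress-induced level per length reversed from 0.215 to 2.61 when members were summed, which counts Hspa8 and Hsp90ab1 in full, and was 0.335 with no division by length and 0.505 with transcript length, an alternative chosen after seeing the data. The median rho among constitutive members was 0.021 with detected genes and reads regressed out and 0.029 in the cells with more detected genes. The fold between clusters of the stress-induced sum was 1.91 at resolution 1.5, 4.31 with no regression (resolution 0.5) and 4.08 with no regression at the unchanged 0.8. Of 41 members, the number with at least a 2-fold range between clusters was 27 at resolution 1.5, where 68.3% of all genes had it. It was 16 with no regression, against 28.8% of all genes, and 17 with none at resolution 0.8, against 34.1%. Without the highest cell of each cluster it was 15, with no share over all genes at hand to set beside it. These alternatives were chosen after seeing the data, and the cause was not tested. In the top 5% by variance there were 4 members. Leaving out each block gave 18.8 to 19.7% for the stress-induced share, 0.212 to 0.228 for the median rho among stress-induced members and 0.665 to 0.686 for the rho with the immediate-early sum. The other alternatives moved no value by over 1.5 times. Depth limits what a read of 0 means, since a gene at 0 in a shallow cell may be expressed.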

Other observations

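Genes with the lowest rho with the stress-induced sum, chosen after their values were seen, were Ltbp4 at -0.367, the lymphatic growth factor receptor Flt4 at -0.298 and the secreted glycoprotein Reln at -0.298, all found in at least 99.4% of cells. The genes most like Hspa5 across cells were H3f3b at 0.396 and Sertad1 at 0.382, ahead of its own partner Dnajb9 at 0.282. Of the 10 genes most like Hspa5, 7 were on the immediate-early list, and its rho with the immediate-early sum was 0.413.

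Of the 8 pseudogene entries left out of the group, Hspd1-ps3 was detected in 7.47% of cells and Dnaja1-ps in 5.95%, while Hspa9-ps1 and Hspe1-ps3 were in 0 cells. Hspd1-ps3 had a rho of 0.302 with Hspd1, and Dnaja1-ps had 0.033 with Dnaja1. Whether these reads came from the parent genes was not tested.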
